A study of Cavia porcellus with 10 samples.

Results

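The genes described here are the endothelial and angiogenic genes of the guinea pig cervix: genes of the endothelial surface and junctions, the VEGF, angiopoietin, Notch, endothelin, apelin and sphingosine signalling genes of vessels, the transcription factors of the endothelial lineage, and lymphatic genes. They were chosen by gene name from a list of 46, and 39 of these have a row under that name among the 25028 genes of the expression table. PECAM1, VWF, VEGFA, PGF, ANGPT2, EDN1 and APLN were not analysed here. Members were matched to the table by gene name, without use of its values. The list itself was chosen with earlier results of these data known. Of the 39 members, 38 reached a mean of 3 TPM (transcripts per 1000000) in at least 1 stage and were tested. CLDN14, a claudin, did not, and lay between 0.181 and 1.11 TPM in every animal. DLL4 and TAL1 passed this minimum in 2 of the 3 stages and PROX1 in 1 (NP), so that these genes could enter the test only through the stages in which they were high.

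RNA-seq was made from the vaginal portion of the cervix of 10 Hartley guinea pigs, an outbred laboratory stock. The 3 non-pregnant animals (NP) were in estrus, taken the day after the membrane that closes the vagina had gone. The 3 mid-term animals (MT) were pregnant for an estimated 43.6 ± 0.5 days and the 4 late-term animals (LT) for 65.2 ± 1.2 days, before labor (mean ± SD as the labels give it). The authors estimated these days from fetal length and weight at harvest. The labels name no drug and no modified allele for any animal. Animals are named below by stage and replicate number, NP1 to LT4. Total counts per animal were between 20047660 and 27351763 in NP, 18730665 and 25380420 in MT, and 25804572 and 27881572 in LT, and the 38 tested members had between 31 and 7278 reads in an animal.

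Endothelial cells line all vessels and hold the wall closed through VE-cadherin junctions. VEGF ligands act on them through the receptors FLT1, KDR and FLT4 with neuropilins as coreceptors, angiopoietins act through TEK with TIE1 as its partner, and Notch ligands on neighbouring cells set which cell sprouts and which vessels become arteries. The cervix is remodelled and hydrated during pregnancy, and its vessels supply that growth and admit plasma and leukocytes to the stroma.

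Most members were lowest at late term. From MT to LT, 22 of 38 members fell and 1, NRP2, rose (limma on log2(TPM + 1), Benjamini-Hochberg adjusted p under 0.05 over 12645 genes). These 23 calls compare with 29.4% of all genes tested, of which 6.73% rose and 22.7% fell. From NP to MT only 5 members were called, 2 higher (HEYL and EDNRB) and 3 lower (JAG1, NOTCH4 and CDH5), against 18.5% of all genes (6.27% higher and 12.2% lower), and this share of members, 13.2%, lay below that of all genes. When single animals were left out, this count of 5 ran from 1 to 10. From NP to LT 26 members fell and 1 rose, against 53.1% of all genes (11.2% higher and 41.9% lower). The median log2 fold change of the members was -0.25 from NP to MT, -0.69 from MT to LT and -0.87 from NP to LT, beside -0.14, -0.16 and -0.28 over all genes tested. NP to LT shares its animals with the other comparisons and is not a separate line of evidence. Rises and falls below are differences of stage means in log2(TPM + 1), given with their SE.

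The groups of animals themselves were apart for many members. From MT to LT, all LT animals lay below all MT animals in 20 members and above them in 1, against 35.5% and 10.8% of all genes. From NP to LT the corresponding counts were 24 and 1, against 40.6% and 11.8%, and from NP to MT 10 and 2, against 23.5% and 11.4%. By stage means in TPM, 26 members (68.4%) followed the order NP over MT over LT, which 44.4% of all genes did, and 8 (EDNRB, FLT1, HEYL, KDR, NRP1, PLVAP, S1PR1 and SOX17) had their highest mean at MT and their lowest at LT. In all, LT had the lowest mean in 34 members, where 56.9% of all genes had theirs. EDNRA, MMRN1 and NRP2 had their highest mean at LT. LYL1 was lowest at MT.

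**Figure D1:**
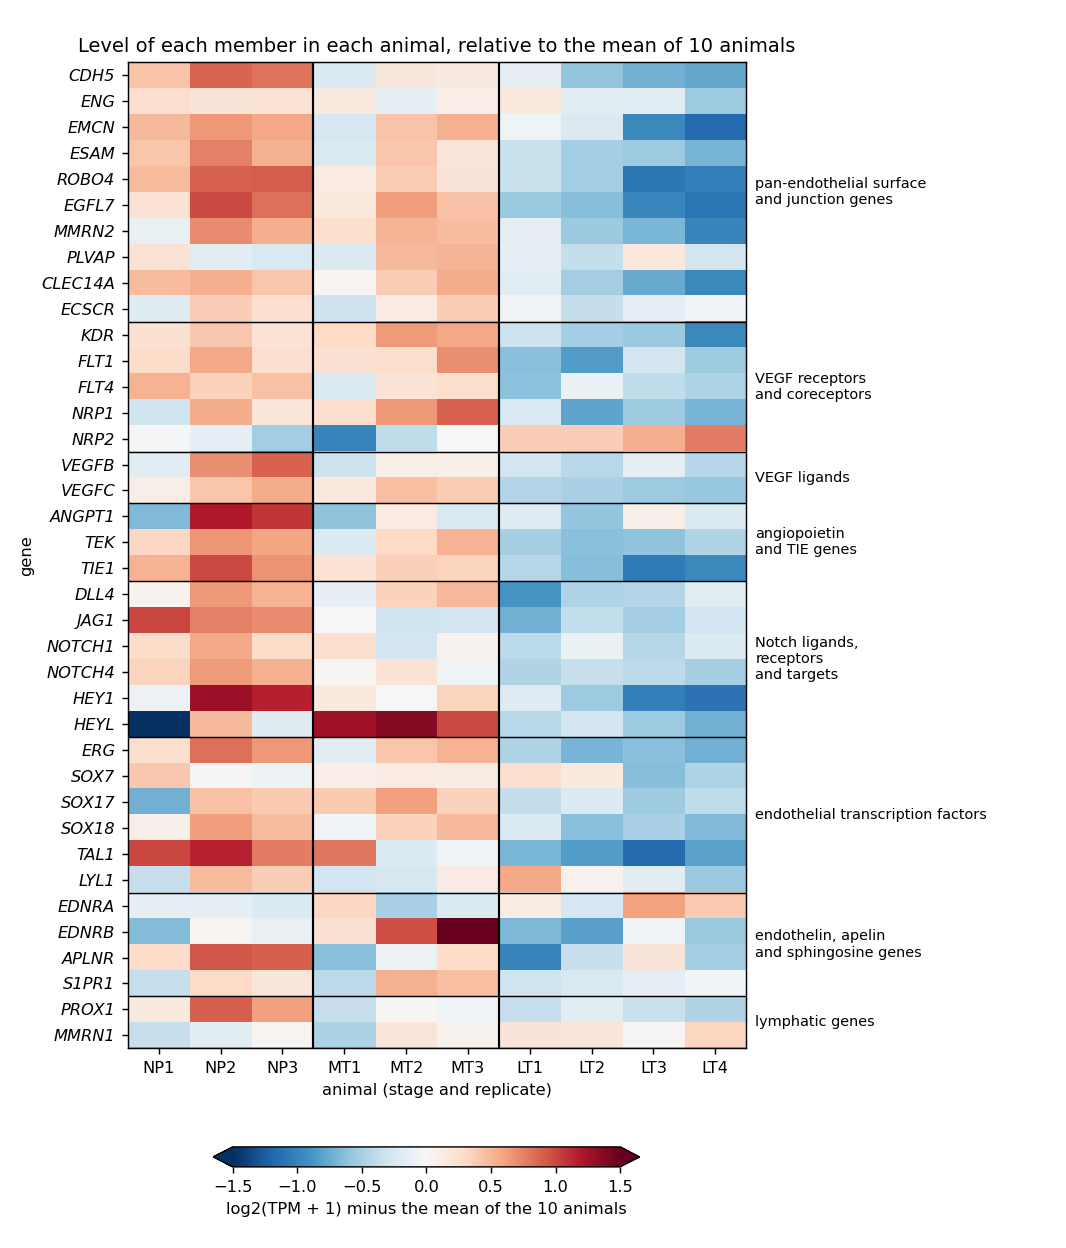
Heat map of the 38 tested members (rows, grouped by role) in the 10 animals (columns, grouped by stage). The colour is log2(TPM + 1) minus the mean of the 10 animals, red above and blue below it. The 4 LT columns are mostly blue, NP2 and NP3 mostly red, and NRP2, EDNRA and MMRN1 run the other way, while HEYL and EDNRB are reddest at MT.

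The make-up of the tissue pieces differed between animals, and in bulk tissue fewer endothelial cells and less RNA per endothelial cell cannot be told apart. The summed TPM of 10 smooth muscle genes was 31880 in NP1 beside 11410 and 8976 in NP2 and NP3, lay between 13310 and 20030 in MT, and was 19670, 19730, 39030 and 40410 in LT1 to LT4. Of these 10 genes, 1 was called higher from MT to LT and 1 from NP to LT. That of 6 squamous epithelium genes was 3335 in NP1, 1025 to 1059 in the other two NP animals, 166 to 1230 in MT and 1488 to 2931 in LT, and 3 of these 6 genes were lower from NP to MT, 1 was higher from MT to LT and 3 were lower from NP to LT. The 11 leukocyte genes summed to 94.7 to 211 in NP, 103 to 119 in MT and 142 to 239 in LT, and of the 9 tested 2 were called higher from MT to LT, and 2 were higher and 2 lower from NP to LT. Genes of uterine and cervical identity, HOXA11, HOXA13, EMX2 and ESR1 among 5 measured, had sums of 446 to 662 in the NP animals, 437 to 526 in the MT animals and 189 to 283 in the LT animals (TPM), with 4 of 5 lower from MT to LT and 4 of 5 from NP to LT. Like the pan-endothelial sum, this sum was lowest in the 4 LT animals. Beside the counts called in these lists, 12.2% of all genes were lower from NP to MT. From MT to LT 6.73% of all genes were higher and 22.7% lower, and from NP to LT 11.2% and 41.9%. The lowest level of CDH5 in an animal was 14.2 TPM, so that endothelial transcripts were seen in each library. The part of these differences in the results was not tested, but each count was recomputed without NP1, LT3 and LT4, the 3 animals with the most smooth muscle transcripts, a choice made after seeing the data. Then 18 members fell from MT to LT (18.2% of all genes fell), 27 fell from NP to LT (43.5%), and 12 were called from NP to MT (33.8%), 11 of them lower. NRP2 was then not called, at a log2 difference of 0.83 from MT to LT (adjusted p = 0.0684).

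**Figure D2:**
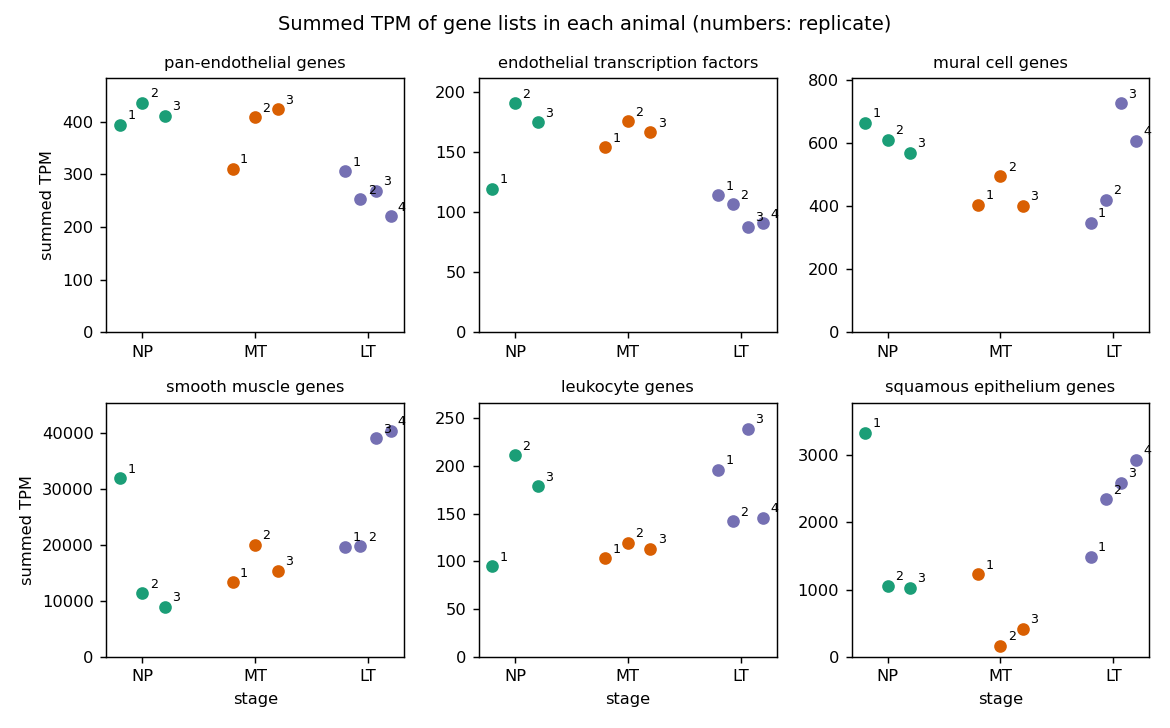
Summed TPM of 6 gene lists in each animal (vertical axis, from 0; the horizontal axis gives the stage, and the number beside a point the replicate). The 10 pan-endothelial genes sum to 221 to 306 TPM in LT, below all NP and MT animals, whereas smooth muscle genes are highest in NP1, LT3 and LT4 and squamous genes are lowest in MT2 and MT3.

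The endothelial surface and junction genes fell mainly between MT and LT: 7 of 10 measured members fell (22.7% of all genes fell), 0 rose, and ENG, PLVAP and ECSCR did not pass the test. Their summed TPM was 394, 436 and 411 in NP, 311, 409 and 424 in MT, and 306, 253, 269 and 221 in LT. CDH5, which encodes VE-cadherin, the adhesion molecule of endothelial junctions, was at 33.9, 46.3 and 44.4 TPM in the NP animals, 21.5, 28.1 and 27.5 TPM in the MT animals and 22.4, 16.2, 14.7 and 14.2 TPM in the LT animals. It fell at both steps, with every MT animal below every NP animal, whereas LT1 lay within the MT range. CDH5 fell by 0.67 ± 0.19 (adjusted p = 0.0336) from NP to MT and by 0.59 ± 0.17 (adjusted p = 0.0303) from MT to LT. The first of these calls was lost when only the 2 stages were fitted and without any 1 of NP2, NP3, MT1, MT2, MT3 and LT2, and the second without any 1 of MT2, MT3, LT2, LT3 and LT4, without NP1, LT3 and LT4 together, and under other scalings (adjusted p from 0.0145 to 0.109 and from 0.0106 to 0.127 over the 20 alternatives on the TPM or count scale), while the fall by 1.26 ± 0.17 (adjusted p = 0.000412) from NP to LT kept its call in all of them. These 20 do not include the fit relative to other endothelial genes described further on, and calls lost with the replicate number as a block are not listed gene by gene.

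ROBO4, a guidance receptor that stabilizes the endothelial barrier, was at 12.3, 16.7 and 17.0 TPM in NP1 to NP3, at 9.42, 11.5 and 9.93 TPM in MT1 to MT3 and at 6.56, 5.64, 3.5 and 3.7 TPM in LT1 to LT4. The 3 stages did not overlap. It fell by 0.98 ± 0.20 (adjusted p = 0.00811) from MT to LT and by 1.503 ± 0.20 (adjusted p = 0.00038) from NP to LT, and the change from NP to MT did not pass the test (adjusted p = 0.116) but did without NP1 (adjusted p = 0.0493). EGFL7, a protein secreted by endothelial cells into their matrix, was measured at 26.1, 45.5 and 40.5 TPM without pregnancy, 25.1, 35.2 and 30.7 TPM at mid-term and 14.96, 14.1, 10.9 and 9.95 TPM at late term. NP and MT animals overlapped, and all LT animals were lower, with the LT mean at 41.1% of the MT mean. The fall from MT to LT was the deepest among these surface genes, at -1.22 ± 0.21 (adjusted p = 0.00398). MMRN2, a matrix protein that binds the receptor CLEC14A, had nearly equal means in NP (13.9 ± 4.12 TPM, SD, n = 3) and MT (13.9 ± 1.38 TPM, n = 3) and a lower one in LT (6.59 ± 1.93 TPM, n = 4). In single animals it was at 9.31, 17.2 and 15.2 TPM in the NP animals, 12.3, 14.9 and 14.4 TPM in the MT animals and 9.2, 6.6, 5.95 and 4.6 TPM in the LT animals. NP1 lay near LT1, and the fall from MT to LT was -1.003 ± 0.23 (adjusted p = 0.0122). CLEC14A itself was at 18.9, 19.9 and 18.1 TPM in NP1 to NP3, at 13.8, 17.6 and 20.1 TPM in MT1 to MT3 and at 11.8, 9.03, 7.49 and 6.34 TPM in LT1 to LT4. Here NP and MT overlapped and LT stood below both, with a fall of -0.93 ± 0.19 (adjusted p = 0.00733) from MT to LT.

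ESAM, an adhesion molecule of endothelial tight junctions, was found at 30.2, 38.5 and 32.7 TPM without pregnancy, 19.1, 30.3 and 25.4 TPM at mid-term and 17.5, 15.3, 15.03 and 13.4 TPM at late term. Each LT animal was below each MT animal, with MT1 closest, and ESAM fell by 0.65 ± 0.16 (adjusted p = 0.0141) from MT to LT. Without MT2, or without NP1, LT3 and LT4 together, this call was lost (adjusted p up to 0.0742 over the alternatives), whereas the fall from NP to LT (-1.09 ± 0.16 (adjusted p = 0.000494)) was not. EMCN, the sialomucin endomucin of capillary and venous endothelium, was at 40.9, 46.2 and 44.1 TPM in the NP animals, 24.1, 39.4 and 42.4 TPM in the MT animals and 27.6, 24.9, 14.4 and 12.4 TPM in the LT animals. LT1 and LT2 lay above MT1, so that MT and LT overlapped. EMCN fell by 0.84 ± 0.28 (adjusted p = 0.0483) from MT to LT, a call lost in 14 of the 20 alternatives (adjusted p from 0.025 to 0.253), among them every scaling and count model and the fits without NP2, NP3, MT2, MT3, LT3 or LT4. From NP to LT it fell by 1.18 ± 0.28 (adjusted p = 0.00619) with no overlap.

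ENG, the TGF-beta coreceptor endoglin, moved little: its stage means were 82.5 ± 1.48, 73.0 ± 7.84 and 63.6 ± 12.6 TPM in NP, MT and LT (SD), and its fall from NP to LT (-0.39 ± 0.15 (adjusted p = 0.0433)) was lost in 16 of the 20 alternatives. PLVAP, which forms the diaphragms of fenestrae and caveolae in permeable vessels, had means of 93.3 ± 16.7, 119 ± 30.7 and 87.5 ± 14.5 TPM and was not called between any stages. MT1 was the low MT animal for PLVAP, at 83.5 TPM beside 135 and 138 TPM, and without MT1 the fall to LT passed the test (adjusted p = 0.0265). ECSCR, a surface protein of endothelial cells that promotes their movement, lay between 22.8 and 38.7 TPM with log2 differences of -0.09 (NP to MT, adjusted p = 0.779) and -0.22 (MT to LT, adjusted p = 0.384), and was called lower from NP to LT only without NP1 (adjusted p = 0.0446).

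All 5 VEGF receptors and coreceptors were called between MT and LT, 4 lower and 1 higher, against 29.4% of all genes. KDR, the main signalling receptor for VEGFA, was at 22.1, 25.1 and 21.8 TPM in NP1 to NP3, at 23.3, 29.7 and 28.5 TPM in MT1 to MT3 and at 14.9, 12.9, 12.4 and 9.1 TPM in LT1 to LT4. The NP and MT animals overlapped, and the highest LT animal was below the lowest of them. It fell by 1.09 ± 0.15 (adjusted p = 0.0024) from MT to LT, to 45.4% of the MT mean, and this call held in each of the 20 alternatives. FLT1, a receptor with high affinity and weak signalling that also exists as a soluble decoy, was at 24.4, 30.2 and 23.8 TPM without pregnancy, 23.5, 24.1 and 33.0 TPM at mid-term and 12.6, 10.7, 16.4 and 13.5 TPM at late term. It had the same pattern of NP and MT together and LT below, and fell by 0.96 ± 0.16 (adjusted p = 0.00404). The per-animal log2 ratio of FLT1 to KDR, which hardly depends on the scaling of a library, was 0.17 ± 0.07 in NP, -0.03 ± 0.25 in MT and 0.11 ± 0.40 in LT (SD). It ranged within LT from -0.25 in LT2 to 0.53 in LT4. No difference between the stages passed an exact permutation test of the one-way F statistic over 4200 assignments (p = 0.693). The smallest possible p was 0.000476.

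FLT4, the receptor for VEGFC on lymphatic and some blood endothelium, was at 11.7, 10.4 and 11.04 TPM in the NP animals, 6.73, 9.28 and 9.68 TPM in the MT animals and 4.79, 7.31, 5.82 and 5.46 TPM in the LT animals. LT2 lay above MT1, and the fall of -0.48 ± 0.16 (adjusted p = 0.0461) from MT to LT was lost in 16 of the 20 alternatives (adjusted p up to 0.155), including the fits without NP2, NP3, MT2, MT3, LT1, LT3 or LT4. The fall from NP to LT by 0.83 ± 0.16 (adjusted p = 0.00206) was kept. The neuropilins went opposite ways. NRP1, a coreceptor for VEGFA and semaphorins, was at 50.6, 92.4 and 70.9 TPM in NP1 to NP3, at 74.4, 98.4 and 116 TPM in MT1 to MT3 and at 53.1, 35.7, 42.9 and 38.2 TPM in LT1 to LT4. All MT animals were above all LT animals, and NP1 lay within the LT range. NRP1 fell by 1.16 ± 0.22 (adjusted p = 0.00586) from MT to LT, and from NP to MT its difference was 0.45 ± 0.23 (adjusted p = 0.202, and 0.0467 by DESeq2). Its fall from NP to LT by 0.71 ± 0.22 (adjusted p = 0.0213) was lost without any 1 of NP2, NP3, LT2 and LT4 and under the other scalings (adjusted p up to 0.103).

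NRP2, the coreceptor that pairs with FLT4 on lymphatic and venous endothelium and is also present on smooth muscle and epithelium, was at 39.7, 36.9 and 27.8 TPM without pregnancy, 19.7, 30.9 and 40.1 TPM at mid-term and 52.5, 52.2, 59.1 and 69.9 TPM at late term. Every LT animal was above every NP and MT animal, and LT3 and LT4 were the highest. It rose by 0.98 ± 0.22 (adjusted p = 0.011) from MT to LT, 1.93-fold by the means, and by 0.74 ± 0.22 (adjusted p = 0.0179) from NP to LT. The order of NRP2 within LT was that of summed smooth muscle TPM in LT3 and LT4 against LT1 and LT2, and the part of the smooth muscle in the rise was not tested. The rise was lost without NP1, LT3 and LT4 together, and that from NP to LT also without NP3 (adjusted p up to 0.0921).

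Of the VEGF ligands, VEGFC, which drives lymphatic growth, was at 14.4, 18.4 and 20.5 TPM in the NP animals, 15.2, 18.9 and 17.9 TPM in the MT animals and 9.73, 9.43, 9.0 and 8.82 TPM in the LT animals. The 4 LT animals were close together and below all others. VEGFC fell by 0.83 ± 0.13 (adjusted p = 0.0031) from MT to LT, to 53.4% of the MT mean, and changed by -0.03 ± 0.14 from NP to MT (adjusted p = 0.909). VEGFB, a ligand of FLT1, had the highest levels of any member, from 223 to 463 TPM in the NP animals, from 199 to 267 TPM in MT and from 185 to 228 TPM in LT, with NP1 low at 223 TPM beside 405 and 463 TPM. It fell by 0.79 ± 0.22 (adjusted p = 0.0144) from NP to LT, a call lost with median-ratio scaled TPM and without NP2 or NP3 (adjusted p up to 0.0618), and without NP1 the fall from NP to MT was called as well (adjusted p = 0.00532).

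**Figure D3:**
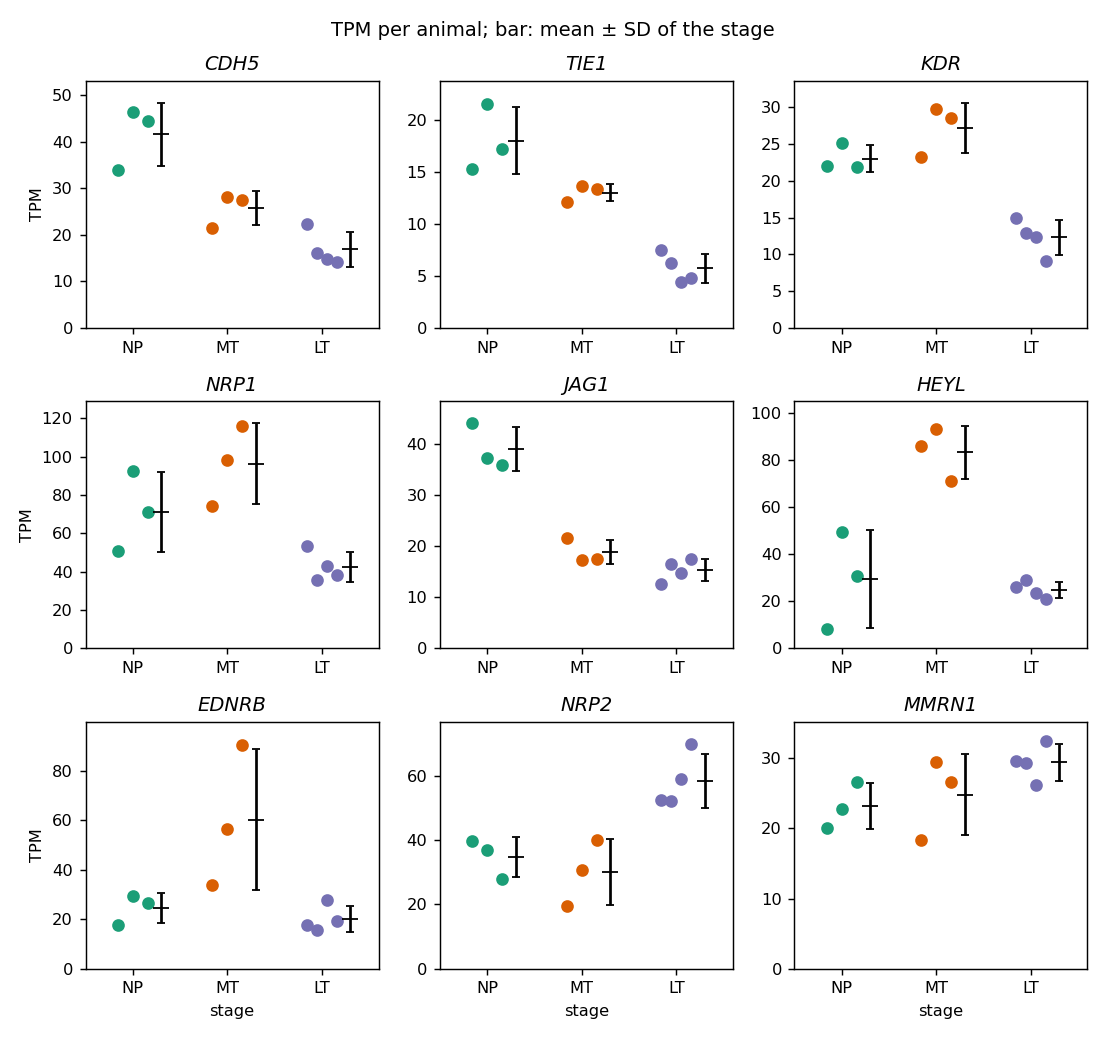
TPM (vertical axis, from 0) of 9 members in each animal, by stage (horizontal axis), with the stage mean and SD as a bar. CDH5, TIE1 and JAG1 have their highest mean in NP, KDR, NRP1, HEYL and EDNRB have theirs in MT, and NRP2 is highest in LT at 52.2 to 69.9 TPM.

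The TIE receptors fell and their ligand ANGPT1 did not pass the test over all animals. TEK, the receptor of the angiopoietins, was at 7.64, 10.01 and 9.46 TPM in NP1 to NP3, at 5.04, 7.58 and 8.94 TPM in MT1 to MT3 and at 3.92, 3.52, 3.56 and 4.07 TPM in LT1 to LT4. MT1 was the lowest MT animal and still above all LT animals, which spanned only 3.52 to 4.07 TPM. TEK fell by 0.75 ± 0.18 (adjusted p = 0.0132) from MT to LT, a call lost without MT2 or without MT3 (adjusted p up to 0.0551), and by 1.07 ± 0.18 (adjusted p = 0.00098) from NP to LT. TIE1, the orphan partner of TEK, was at 15.2, 21.5 and 17.2 TPM without pregnancy, 12.1, 13.6 and 13.3 TPM at mid-term and 7.46, 6.28, 4.44 and 4.82 TPM at late term. The 3 stages did not overlap, and TIE1 fell by 1.07 ± 0.17 (adjusted p = 0.00349) from MT to LT and by 1.5 ± 0.17 (adjusted p = 0.00021) from NP to LT, to 32.0% of the NP mean. Both calls held in each of the 20 alternatives. ANGPT1, the agonist of TEK made by mural and stromal cells, was at 4.03, 17.4 and 15.8 TPM in the NP animals, 4.27, 7.71 and 5.82 TPM in the MT animals and 5.98, 4.33, 7.5 and 5.87 TPM in the LT animals. NP1 stood far below NP2 and NP3 and below all pregnant animals. The log2 differences were -0.77 ± 0.44 from NP to MT, 0.01 ± 0.41 from MT to LT and -0.76 ± 0.41 from NP to LT (adjusted p = 0.234, 0.992 and 0.140). Without NP1 the first became -1.37 and the last -1.36, and both were called (adjusted p = 0.00498 and 0.00092).

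Of the 6 Notch ligands, receptors and targets, 1 rose and 2 fell from NP to MT and 3 fell from MT to LT, where 6.27%, 12.2% and 22.7% of all genes did. JAG1, a Notch ligand of endothelial and smooth muscle cells, was at 43.9, 37.1 and 35.8 TPM in NP1 to NP3, at 21.5, 17.4 and 17.5 TPM in MT1 to MT3 and at 12.6, 16.5, 14.6 and 17.5 TPM in LT1 to LT4. The NP mean was 2.07 times the MT mean with no overlap, while MT and LT overlapped. JAG1 fell by 1.01 ± 0.14 (adjusted p = 0.00183) from NP to MT, the only member call of that step that held in all 20 alternatives on the TPM or count scale, and the change from MT to LT was -0.28 ± 0.13 (adjusted p = 0.129). NOTCH4, a receptor largely restricted to endothelium, was at 95.2, 118 and 109 TPM without pregnancy, 76.3, 86.5 and 72.3 TPM at mid-term and 54.5, 58.9, 57.1 and 52.9 TPM at late term. The 3 stages did not overlap at either step, and NOTCH4 fell by 0.45 ± 0.10 (adjusted p = 0.0157) and then by 0.48 ± 0.10 (adjusted p = 0.00708). The first call was lost when only the 2 stages were fitted and without NP2 or without MT3 (adjusted p up to 0.0688). DLL4, the Notch ligand of tip cells and arteries, was at 4.08, 6.69 and 6.03 TPM in the NP animals, 3.48, 5.23 and 5.87 TPM in the MT animals and 1.65, 2.53, 2.6 and 3.37 TPM in the LT animals. These are low levels, from 79 reads in an animal, and the LT animals lay below those of MT. The fall of -0.73 ± 0.23 (adjusted p = 0.041) from MT to LT was lost under other scalings, on square-root TPM, with no filter, and without any 1 of NP3, MT2, MT3, LT1, LT2 and LT3 (adjusted p up to 0.135), whereas the fall from NP to LT by 0.90 ± 0.23 (adjusted p = 0.00915) was kept.

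NOTCH1, the broad Notch receptor, fell by 0.66 ± 0.15 (adjusted p = 0.00422) from NP (25.0 ± 3.09 TPM) to LT (15.5 ± 1.82 TPM, SD), with neither step called alone. The HES-related Notch targets differed from each other. HEY1 was at 7.54, 21.2 and 19.4 TPM in NP1 to NP3, at 9.01, 8.06 and 10.4 TPM in MT1 to MT3 and at 6.93, 5.2, 3.43 and 3.21 TPM in LT1 to LT4. NP1 lay with the MT animals and all LT animals were below all others. HEY1 fell by 1.51 ± 0.34 (adjusted p = 0.00431) from NP to LT, to 29.3% of the NP mean, while the steps of -0.63 ± 0.36 (NP to MT, adjusted p = 0.236) and -0.88 ± 0.34 (MT to LT, adjusted p = 0.0729) did not pass. Without NP1 both were called, at -1.07 and -0.88, and the second also in the fit of 2 stages, without LT1, and without NP1, LT3 and LT4 together. HEYL, a target also active in vascular smooth muscle and pericytes, was at 8.04, 49.6 and 30.8 TPM without pregnancy, 86.1, 93.2 and 71.0 TPM at mid-term and 26.1, 28.9, 23.7 and 21.0 TPM at late term. Every MT animal was above every other animal, and NP1 was far below NP2 and NP3. HEYL rose by 1.78 ± 0.49 (adjusted p = 0.0318) from NP to MT, 2.83-fold by the means, and fell by 1.70 ± 0.46 (adjusted p = 0.0214) from MT to LT. Without NP1 the rise was 1.065 and still called. It was lost when only the 2 stages were fitted and without MT1, MT2 or MT3 (adjusted p from 0.00135 to 0.101) and the fall without MT1, MT2, LT3 or LT4 (from 0.000968 to 0.0761). NP and LT differed by 0.08 ± 0.46 (adjusted p = 0.897), and without NP1 this turned into a fall of -0.64 (adjusted p = 0.0202).

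Among the endothelial transcription factors, 4 of 6 fell from MT to LT, where 22.7% of all genes fell. ERG, the ETS factor that keeps endothelial identity, was at 11.6, 18.1 and 15.8 TPM in the NP animals, 8.65, 13.3 and 14.3 TPM in the MT animals and 6.86, 5.6, 5.97 and 5.5 TPM in the LT animals. NP and MT overlapped and the LT animals, between 5.50 and 6.86 TPM, lay below both. ERG fell by 0.88 ± 0.19 (adjusted p = 0.00924) from MT to LT, a call that held in each of the 20 alternatives. TAL1, a bHLH factor of blood and endothelial progenitors, was at 13.3, 14.9 and 11.1 TPM in NP1 to NP3, at 11.3, 5.2 and 5.95 TPM in MT1 to MT3 and at 3.44, 3.0, 2.2 and 3.07 TPM in LT1 to LT4. MT1 was at the level of NP3, and MT2 and MT3 were lower than all NP animals. With 31 to 167 reads in an animal it had the fewest reads of the tested members, and it fell by 1.84 ± 0.23 (adjusted p = 0.000301) from NP to LT, to 22.4% of the NP mean. From MT to LT it fell by 1.05 ± 0.23 (adjusted p = 0.0103), which was lost without NP1, LT3 and LT4 together (adjusted p = 0.0624), and the step from NP to MT was called on square-root TPM and without MT1 (adjusted p = 0.00724).

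SOX18, a SOXF factor of vessels and lymphatics, was at 30.0, 44.2 and 39.5 TPM without pregnancy, 27.5, 36.05 and 39.8 TPM at mid-term and 24.3, 18.0, 19.9 and 17.5 TPM at late term. The LT animals were all below the MT animals, and SOX18 fell by 0.76 ± 0.17 (adjusted p = 0.0113) from MT to LT. SOX17, the SOXF factor of arteries, ranged from 38.2 to 86.6 TPM in NP, from 81.0 to 97.6 TPM in MT and from 43.4 to 54.9 TPM in LT. NP1 was the only NP animal at the LT level. SOX17 fell by 0.82 ± 0.25 (adjusted p = 0.0313) from MT to LT, which was lost without any 1 of MT1, MT2, MT3, LT1, LT3 and LT4 (adjusted p up to 0.113), and its change from NP to LT became a called fall without NP1 (-0.79, adjusted p = 0.000387). SOX7, the third SOXF factor, had means of 16.7 ± 3.21, 16.5 ± 0.14 and 13.8 ± 4.37 TPM (SD) and LYL1, a relative of TAL1, of 9.10 ± 2.83, 7.01 ± 1.28 and 7.97 ± 3.00 TPM in NP, MT and LT. Neither was called at any step, nor in any alternative on the TPM or count scale.

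**Figure D4:**
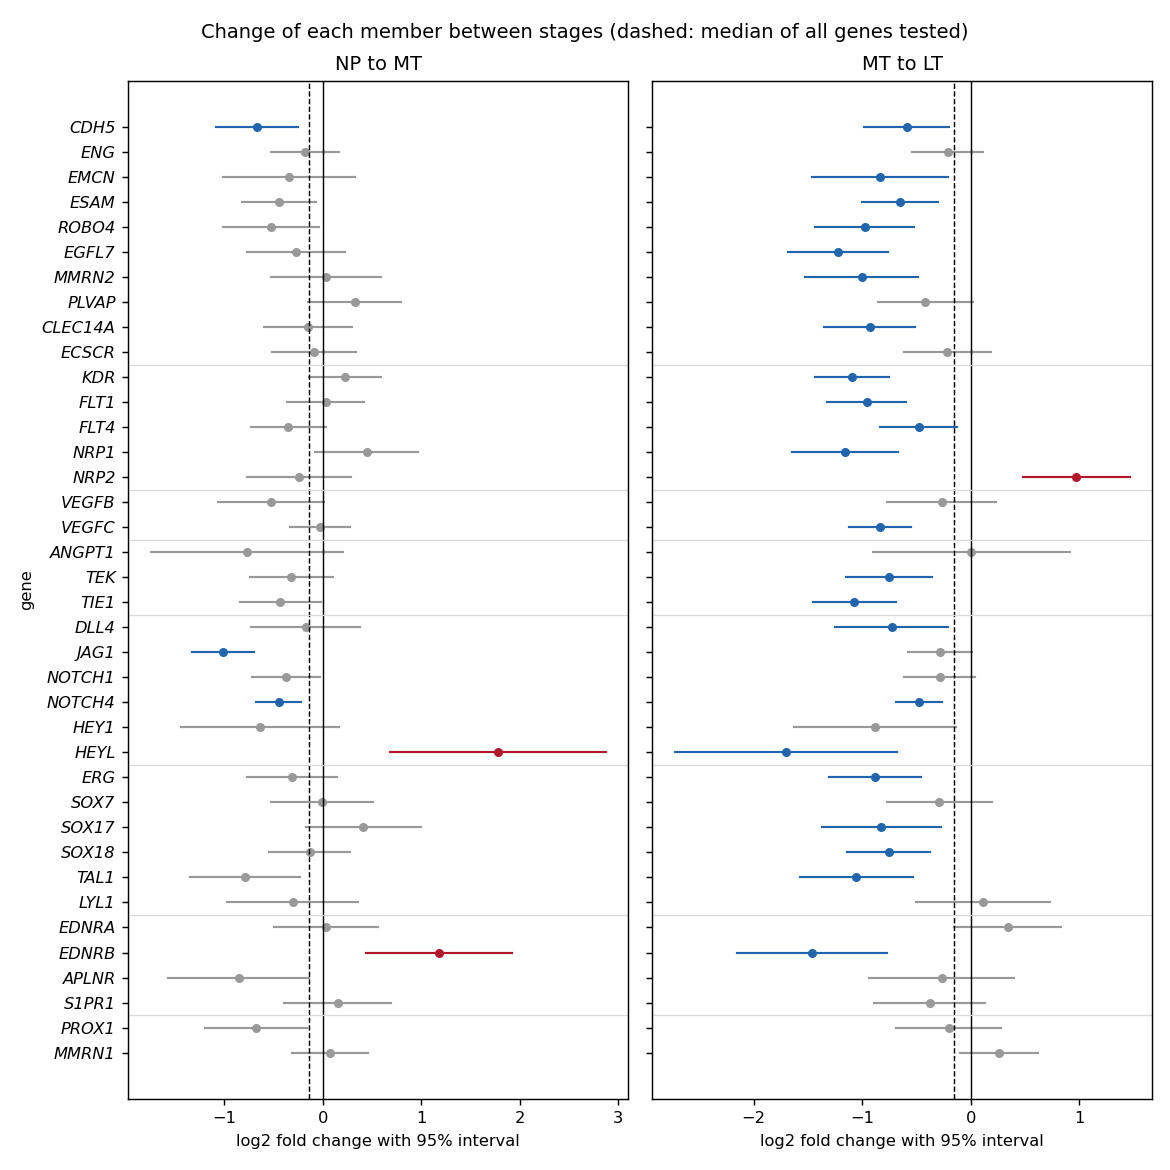
Log2 fold change of each tested member (points) with its 95% interval (lines) from NP to MT (left) and from MT to LT (right). Red and blue mark members called higher and lower and grey those that did not pass, and the dashed line is the median of all genes tested, -0.14 and -0.16. On the left 2 points are red and 3 blue, on the right 1 (NRP2) is red and 22 are blue.

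Of the endothelin, apelin and sphingosine receptors, EDNRB was called at both steps. EDNRB, which on endothelium answers endothelin with nitric oxide release and clears the peptide, was at 17.9, 29.5 and 26.4 TPM in the NP animals, 33.8, 56.7 and 90.4 TPM in the MT animals and 17.6, 15.8, 27.6 and 19.1 TPM in the LT animals. The MT animals spread from 33.8 to 90.4 TPM and all exceeded all NP and LT animals. EDNRB rose by 1.18 ± 0.33 (adjusted p = 0.0352) from NP to MT, 2.45-fold by the means, and fell by 1.46 ± 0.31 (adjusted p = 0.00886) from MT to LT. The fall held in each of the 20 alternatives, whereas the rise was lost with no filter on low genes, when only the 2 stages were fitted, without NP1, LT3 and LT4 together, and without any 1 of NP1, NP2, NP3, MT2, MT3 and LT4 (adjusted p up to 0.118). EDNRA, the contractile endothelin receptor of smooth muscle and mural cells, had means of 22.4 ± 0.73, 23.6 ± 7.03 and 30.1 ± 7.73 TPM (SD), with LT3 and LT4 the highest at 38.8 and 33.3 TPM. Its difference from NP to LT was 0.37 ± 0.22 (adjusted p = 0.176), and it was called higher with median-ratio scaled TPM and with all 3 count models (adjusted p down to 0.0148).

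APLNR, the apelin receptor of veins and sprouting vessels, was at 16.1, 25.9 and 25.3 TPM in NP1 to NP3, at 8.11, 12.2 and 16.1 TPM in MT1 to MT3 and at 6.05, 10.1, 15.2 and 8.88 TPM in LT1 to LT4. NP1 was barely above the highest MT animal, and MT and LT overlapped. APLNR fell by 1.12 ± 0.30 (adjusted p = 0.0108) from NP to LT, which edgeR did not call (adjusted p = 0.051), and by neither step alone in the test over all animals. Without NP1 the fall from NP to MT was called (adjusted p = 0.0412). S1PR1, the sphingosine-1-phosphate receptor that tightens endothelial junctions, had means of 23.7 ± 5.54, 27.1 ± 8.85 and 19.8 ± 1.57 TPM and was not called. MT1 was the low MT animal here too, at 16.9 TPM beside 33.1 and 31.2 TPM, and without MT1 the difference from MT to LT went from -0.38 to -0.67 and was called (adjusted p = 0.0265).

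PROX1 and MMRN1 are the lymphatic members. PROX1, the factor that sets lymphatic identity, was at 2.51, 4.9 and 3.86 TPM without pregnancy, 1.49, 2.21 and 2.09 TPM at mid-term and 1.49, 1.83, 1.51 and 1.33 TPM at late term. The NP animals were above all pregnant animals and the others overlapped. PROX1 fell by 0.88 ± 0.22 (adjusted p = 0.00717) from NP to LT, and its step from NP to MT (-0.68 ± 0.23 (adjusted p = 0.0681)) was called by the 3 count models and without NP1. MMRN1, a multimerin stored in platelets and endothelium and enriched in lymphatic vessels, had means of 23.1 ± 3.28, 24.8 ± 5.81 and 29.4 ± 2.58 TPM (SD). Its difference from MT to LT was 0.26 ± 0.16 (adjusted p = 0.243, and 0.0444 by DESeq2). Its difference from NP to LT was 0.34 ± 0.16 (adjusted p = 0.103) and passed with median-ratio scaled TPM, with all 3 count models and without MT1 (adjusted p down to 0.000564).

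In TPM as deposited the median of all genes moved by -0.28 from NP to LT. With TPM scaled by median ratios, which brought this median to 0.000335, the members' medians were -0.54 from MT to LT and -0.59 from NP to LT. The calls were then 1 higher and 18 lower from MT to LT, and 3 higher and 23 lower from NP to LT, while all genes split nearly evenly between higher and lower (14.0% and 15.3%, and 24.7% and 25.0%). From NP to MT the scaled median was -0.13 and 5 members were called (18.1% of all genes). Of the calls in the test on TPM as deposited, 11 of 23 from MT to LT (ROBO4, EGFL7, CLEC14A, KDR, FLT1, NRP1, VEGFC, TIE1, NOTCH4, ERG and EDNRB) and 22 of 27 from NP to LT held in all 20 alternatives on the TPM or count scale.

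To see which members moved apart from the endothelial surface genes, each animal's log2 values were taken relative to its mean over the 10 pan-endothelial genes, an alternative chosen after seeing the data. That mean was 4.96 to 5.28 in NP, 4.65 to 5.05 in MT and 3.94 to 4.52 in LT, in log2(TPM + 1). Of the 28 tested members outside these 10, 3 were higher and 0 lower from NP to MT (9.28% of all genes called), namely HEYL, EDNRB and NRP1. From MT to LT 4 were higher and 4 lower (54.3% of all genes, 52.4% higher and 1.86% lower). HEYL, EDNRB, NRP1 and KDR fell by more than the mean of the surface genes. Their relative changes were -0.997 ± 0.39, -0.76 ± 0.28, -0.45 ± 0.18 and -0.39 ± 0.14 (log2, SE, adjusted p = 0.0443, 0.0367, 0.0453 and 0.0366). NRP2, EDNRA, MMRN1 and LYL1 were higher relative to that mean, by 1.68 ± 0.25, 1.05 ± 0.31, 0.96 ± 0.18 and 0.82 ± 0.20 (adjusted p = 0.000831, 0.0153, 0.00254 and 0.007). The surface genes did not move as one. EGFL7 was lower than their mean by 0.52 ± 0.16 (adjusted p = 0.0171), and ENG and ECSCR were higher by 0.49 ± 0.18 each (adjusted p = 0.0349 and 0.0367). FLT1, TEK, TIE1, ERG, SOX18, VEGFC and DLL4 were not called on this scale at this step. From NP to LT TAL1 and TIE1 fell by more than the mean of the surface genes (-0.91 ± 0.30 and -0.56 ± 0.16, adjusted p = 0.0187 and 0.00804). The surface genes ROBO4 and EGFL7 fell by about as much as TIE1 (-0.57 and -0.55). ENG, PLVAP and ECSCR, also surface genes, were higher than the mean (0.54, 0.84 and 0.63). Outside the surface genes 7 members were higher, against 64.1% of all genes called (60.7% higher and 3.35% lower).

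**Figure D5:**
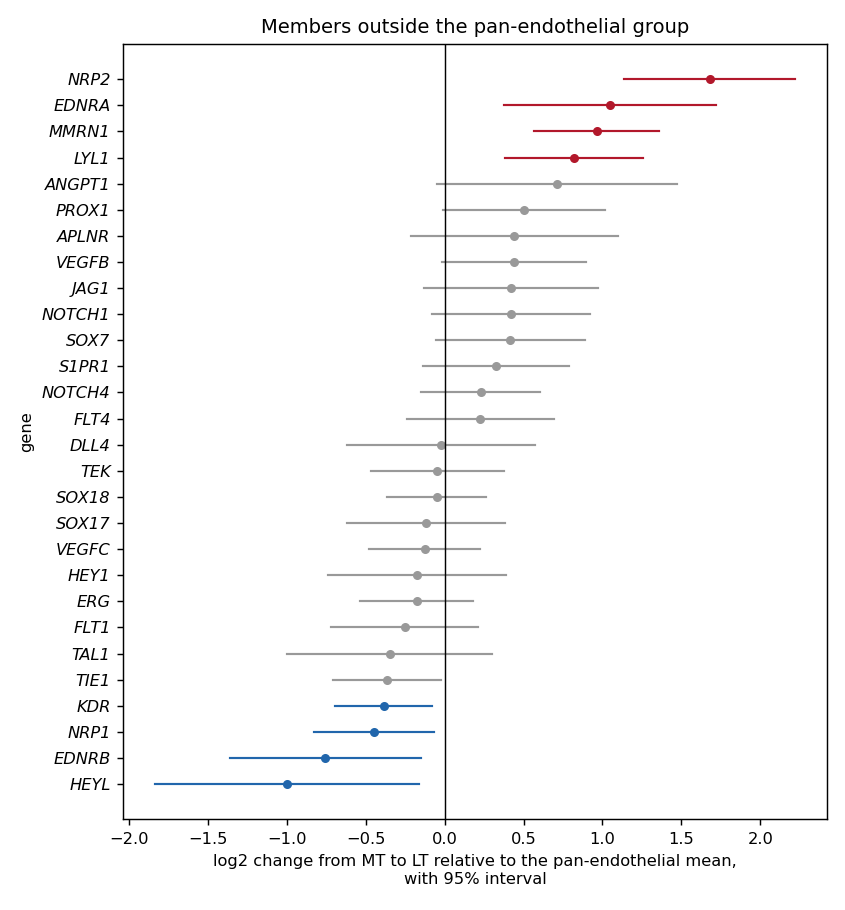
Log2 change from MT to LT of the 28 tested members outside the pan-endothelial group, each relative to the animal's mean over that group. The horizontal axis gives this change with the 95% interval, and 0 is the same change as the mean of the group. Red and blue mark the 4 members called higher and the 4 called lower. NRP2 lies farthest to the right at 1.68 and HEYL farthest to the left at -0.997.

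Other genes of the same pathways were taken from lists of their known roles. Of 25 tested genes of other endothelial markers, 1 rose and 4 fell from NP to MT, 2 rose and 10 fell from MT to LT, and 2 rose and 15 fell from NP to LT. These are 20.0%, 48.0% and 68.0% of the list, beside 18.5%, 29.4% and 53.1% of all genes. Their median from MT to LT was -0.41 beside -0.16 for all genes. GJA4, the gap junction protein of arterial endothelium, was at 17.6, 16.1 and 18.9 TPM in the NP animals, 7.98, 10.3 and 10.1 TPM in the MT animals and 6.04, 6.65, 4.22 and 3.68 TPM in the LT animals. The stages did not overlap and it fell by 0.83 ± 0.20 (adjusted p = 0.0171) and then by 0.79 ± 0.18 (adjusted p = 0.0122). The first call was lost without NP3 or without MT1, and the second without MT2. CLDN5, the main claudin of endothelial tight junctions, fell by 1.40 ± 0.30 (adjusted p = 0.00344) from NP (28.7 ± 11.4 TPM) to LT (9.70 ± 1.73 TPM, SD), and CD34, a sialomucin of capillary endothelium and of stromal cells, by 0.78 ± 0.20 (adjusted p = 0.0089). LYVE1, the hyaluronan receptor of lymphatic endothelium and of some macrophages, ran the other way at 29.2, 21.8 and 21.0 TPM in NP1 to NP3, at 30.3, 31.8 and 26.9 TPM in MT1 to MT3 and at 85.6, 58.3, 79.7 and 91.2 TPM in LT1 to LT4. Every LT animal was above every other animal, and LYVE1 rose by 1.36 ± 0.16 (adjusted p = 0.00182) from MT to LT, a call that held in each of the 20 alternatives. PALMD, which encodes palmdelphin, fell by 1.93 ± 0.36 (adjusted p = 0.0067) from NP to MT and rose by 1.14 ± 0.34 (adjusted p = 0.0301) from MT to LT, the rise being lost on square-root TPM and without any 1 of MT1, MT2, MT3, LT3 and LT4. KLF4, a factor of endothelium and of stratified epithelium, rose by 1.97 ± 0.36 (adjusted p = 0.00169) from NP to LT.

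Of 22 other regulators of angiogenesis, 2 rose and 4 fell from NP to MT and 4 rose and 3 fell from MT to LT, with a median of 0.03. Their shares called, 27.3% and 31.8%, stand beside 18.5% and 29.4% of all genes. VASH2, a vasohibin that promotes sprouting, fell by 2.00 ± 0.31 (adjusted p = 0.00265) from NP to MT, and CTGF, a matricellular growth factor, by 1.62 ± 0.35 (adjusted p = 0.0129), a call lost without MT3. CA9, a carbonic anhydrase known as a target of hypoxia-inducible factor, rose by 1.85 ± 0.59 (adjusted p = 0.0412) from MT to LT, a call lost in 11 of the 20 alternatives (adjusted p up to 0.142), among them square-root TPM, no filter and the fits without any 1 of NP2, MT1, MT2, MT3, LT2, LT3 and LT4. It was at 15.9, 5.1 and 2.78 TPM without pregnancy, 6.71, 5.52 and 3.33 TPM at mid-term and 9.36, 14.7, 51.6 and 25.0 TPM at late term. ANGPTL4, another gene that hypoxia induces, rose by 1.63 ± 0.26 (adjusted p = 0.000822) from NP to LT. In the Notch pathway 16 other genes were tested, of which 0 rose and 1 fell from NP to MT, 0 rose and 5 fell from MT to LT and 0 rose and 11 fell from NP to LT. The shares that fell from MT to LT and from NP to LT were 31.2% and 68.8%, beside 22.7% and 41.9% of all genes. NOTCH2 and JAG2 were not called from NP to MT and fell by 0.71 ± 0.10 (adjusted p = 0.0022) and 0.72 ± 0.21 (adjusted p = 0.0295) from MT to LT. The call of JAG2 was lost without any 1 of MT1, MT2, MT3, LT3 and LT4 (adjusted p up to 0.117). MAML1 and MFNG, a coactivator and a glycosyltransferase of the pathway, fell by 0.74 ± 0.10 (adjusted p = 0.000446) and 0.95 ± 0.23 (adjusted p = 0.00676) from NP to LT. Of 5 other endothelin, apelin and sphingosine genes only SPHK1 was called. It encodes the kinase that makes sphingosine-1-phosphate and was at 16.03, 21.9 and 26.8 TPM in the NP animals, 5.12, 9.92 and 8.49 TPM in the MT animals and 3.35, 2.09, 2.21 and 1.56 TPM in the LT animals. The stages did not overlap, and SPHK1 fell by 1.37 ± 0.27 (adjusted p = 0.00874) from NP to MT and by 1.41 ± 0.25 (adjusted p = 0.00479) from MT to LT.

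The genes of mural cells, which wrap vessels, had few calls at either step. Of 7 tested mural cell genes 0 rose and 1 fell from NP to MT, 1 rose and 1 fell from MT to LT, and 1 rose and 2 fell from NP to LT. These are 14.3%, 28.6% and 42.9% of the list, near or under the shares of all genes (18.5%, 29.4% and 53.1%). Their summed TPM was 568 to 663 in NP, 401 to 494 in MT and 346 to 725 in LT, highest in LT3. PDGFRB, the pericyte receptor for PDGF-B, also present in fibroblasts, fell by 1.10 ± 0.17 (adjusted p = 0.000675) from NP to LT. NDUFA4L2 rose by 1.40 ± 0.38 (adjusted p = 0.0123) from NP to LT, a call lost without NP1, LT3 and LT4 together, and COX4I2 fell by 1.91 ± 0.23 (adjusted p = 0.00107) from NP to MT, both mitochondrial proteins of pericytes that respond to oxygen.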

How the data were processed

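Cervical RNA of 10 guinea pigs (NP, n = 3; MT, n = 3; LT, n = 4), each sample labelled as a separate animal, was sequenced by the authors as strand-specific, poly-A selected single reads of 75 bp. The authors aligned the reads to the guinea pig genome with TopHat2 and deposited the HTSeq (0.5.4p1) read count per Ensembl gene; the submitters' notes also name CASAVA 1.8.2. The authors deposited TPM values derived from these counts, which sum to 1000000 in each animal; the gene lengths behind them are not given in the sources used here. TPM is per length, so levels of different genes can be set side by side, but a gain in abundant transcripts lowers the TPM of all others.

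Genes whose stage mean reached 3 TPM in 1 stage or more were tested with limma 3.58.1 (R 4.3.3, trend) on log2(TPM + 1), with all 10 animals in 1 fit, stage as the only term, and Benjamini-Hochberg adjustment over 12645 genes. A fold change on this scale understates that of low genes. Intervals cover 95%. The alternatives were a pseudocount of 0.1, square-root TPM, no filter, median-ratio scaled TPM, edgeR 4.0.16 (TMM or DESeq2 size factors) and DESeq2 1.42.0 on the counts, a fit of 2 stages only, the replicate number as a block, and leaving out each animal. Those relative to the pan-endothelial mean and without 3 animals were added after seeing the data. The scripts were tested on simulated data. The members and the gene lists were chosen with earlier results of these data known. Members called at an adjusted p under 0.05 were named with the value of each animal, up to 24 by size of change. CDH5, KDR, FLT1 and TEK were to be named whatever their result. VEGFC, FLT4 and ANGPT1 were given in the same way outside this rule. Up to 4 called genes a list were named beside CLDN5, LYVE1 and CD34. The planned ratios of ANGPT2 to ANGPT1 and of PGF to VEGFA were not analysed here.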

Additional observations from a re-analysis of the deposited data

How the results depend on the processing

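The counts of called members from NP to MT, 5 (18.5% of all genes), moved most: to 1 when only the 2 stages were fitted (8.8%), to 3 relative to the pan-endothelial mean (9.28%), to 12 without NP replicate 1 and LT replicates 3 and 4 (33.8%), and from 1 to 10 when single animals were left out (10 without NP1, 2 without NP2, 3 without NP3, 3 without MT2 and 1 without MT3). From MT to LT the count of 23 became 11 relative to the pan-endothelial mean (54.3% of all genes), 3 of them genes of that mean, and lay between 15 (without MT2) and 24 when single animals were left out. From NP to LT the count of 27 became 14 relative to the pan-endothelial mean (64.1%), 5 of them genes of that mean, and lay between 23 and 30 without single animals. The other alternatives left these counts within 1.5 times, except the block below. The log2 ratio of FLT1 to KDR, -0.07 from NP to LT, lay between -0.20 and 0.05 without single animals (p from 0.506 to 0.941), so its sign is not settled. HEYL reversed from NP to LT without NP1, and lay between -0.64 and 0.60 without single animals. Over members, comparisons and alternatives on the TPM or count scale, 2105 results kept their side of the threshold, 131 lost a call and 43 gained one. In 1 result the sign reversed with a call in either fit. Results called in neither fit were counted as kept even where their sign changed. The causes were not tested.

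With the replicate number as a block, 4 members were called from NP to MT (12.5% of all genes), 14 from MT to LT (13.4%) and 24 from NP to LT (43.1%), and MMRN2 and SOX18 lost their MT to LT call only there. Same-numbered animals did not deviate together in every pair (correlations from -0.287 to 0.254 over 9 pairs of animals, beside -0.271 to 0.311 over 24 pairs with different numbers), and the number was not taken as a pairing. The 3 pairs of NP and MT animals were at 0.254, 0.162 and 0.0765, and the members' median from MT to LT was -0.62 under the block. Depth bears most on the members with the fewest reads, TAL1 (from 31 reads in an animal), PROX1 (from 54) and EMCN (from 63).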

Other observations

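Lists of other cells that could bring vessel or blood transcripts were read in the same way. The 3 platelet genes with a row summed to values from 597 to 615 TPM in the NP animals, from 71.3 to 158 TPM in MT and from 102 to 469 TPM in LT, and both tested genes (PPBP, a chemokine of platelet granules, and ITGA2B, a platelet integrin) fell from NP to MT. The call of ITGA2B was lost in 6 of its alternatives, without any 1 of NP2, NP3, MT2 and MT3 among them. The 2 erythroid genes with a row were at 0.139 to 0.928 TPM in sum in each animal, and neither was tested. Of 4 columnar epithelium genes 2 rose from NP to MT, and of 5 fibroblast genes 1 fell from NP to MT, while from MT to LT 1 rose and 1 fell. Of the 5 genes of uterine and cervical identity, 1 rose and 1 fell from NP to MT and 4 fell from MT to LT, with a median of -0.89 beside -0.69 for the endothelial and angiogenic members. Beside the counts of all these lists, 6.27% of all genes rose and 12.2% fell from NP to MT. From MT to LT the shares were 6.73% and 22.7%.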
